A study of Gallus gallus with 4 samples.

Results

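The genes described here encode proteins that form, sort, tether and fuse membrane vesicles. They were picked by name: a row of the authors' deposited table belonged to the set when its mean was above 0 and its symbol began with a family name of the trafficking machinery, such as VPS, SNX, SEC, STX, SYT, SYN, TRAPP, EHD or ATG. In all, 20 symbols matched. UNC13B and SCG2 were excluded by name, and CHMP2A, a subunit of the ESCRT-III membrane scission machinery, was listed at 0, which left 17 of the 17108 genes of the table.

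RNA came from trunk neural tube of chick embryos that were electroporated in ovo at HH stage 11 and dissected 18 hours later. The Hoxb8 group (2 libraries) received Hoxb8-pCIG at 1 µg/µl mixed with pCIG at 1 µg/µl, and the control group (2 libraries) received pCIG at 2 µg/µl. Both groups thus carried the pCIG vector, from which green fluorescent protein (GFP) is made, and both consisted of living GFP-positive cells obtained by sorting. The labels do not say how many embryos made up a library, nor whether the libraries of a group came from separate embryos. The spread between these libraries may thus be technical. The p-values rest on the spread that the authors' model gives to 2 libraries per group. The study asked how HoxB genes act on neuronal delamination, the release of newborn neurons from the apical surface, and on Lzts1.

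Cargo leaves the endoplasmic reticulum in coated vesicles, passes the Golgi, and is sorted at endosomes to the plasma membrane, to lysosomes or back. Tethers first hold a vesicle at its target, and SNARE proteins then drive the 2 membranes together. Neurons use the same machinery, with synapsins, synaptotagmins and other specialised proteins added, to release transmitter and peptide. The roles named below are known mainly from mammals.

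Among the trafficking genes, 1 changed past the threshold. Of the 17 members, 14 had an adjusted p-value in the authors' deposited table, and 1 of these passed at an adjusted p under 0.05, the sorting nexin gene SNX18, which was higher in Hoxb8. The 1 call among 14 is a share of 7.14%, against 15.2% of the 12574 tested genes of the whole table and 17.8% of the tested genes that carry a symbol. UNC13B and SCG2 were both called, so excluding them by name could only lower the share of the members. With them it was 18.8% (3 of 16), so the lower share is not a result about these genes. For calls higher in Hoxb8 the share over all tested genes was 8.72%, so the count of 1 lay near that background. No member was called lower by the DESeq2 test of the authors (0 with an unadjusted p under 0.05 as well), against 6.49% of all tested genes. These background shares depended on the scaling. With genes of a mean over 10000 at a median of 0 they were 14.7% higher and 2.87% lower. With the Wald scores divided by their central spread they were 1.90% higher and 0.596% lower. The central spread is the scaled median absolute deviation of the scores of all tested genes. Dividing by it assumes that most genes did not change, which was not tested, and true changes in many genes would make it too strict. Without adjustment 2 of the 14 had a p under 0.05 (SNX18 and SYT12), against 26.7% of all tested genes, and at an adjusted p under 0.1 the same 2 passed, against 19.8%. The median log2 fold change of the 14 members was 0.095, where positive values are higher in Hoxb8. It was -0.0053 over all tested genes and 0.035 over the tested genes that carry a symbol. By sign alone, 8 of the 14 lay above 0 and 6 below. The share above 0 was 49.1% over all tested genes and 54.3% over those with a symbol. In sorted bulk cells, fewer cells of a type and less RNA per cell cannot be told apart.

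The authors' deposited table gives 1 mean over the 4 libraries, 1 fold change and 1 standard error for each gene, so values per library are not shown. Its mean total was 79237283 normalised counts per library. Neither HOXB8 nor LZTS1 has a row under its symbol (0 rows each), so the electroporated gene could not be used to check the direction, which follows the title of the authors' deposited table. Progenitor markers of the neural tube could not be looked up either, since 0 of 11 listed genes, SOX2 and PAX6 among them, carry a symbol there.

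Among the genes of endosomal sorting, SNX18 rose and the other 3 tested members did not pass. Over all tested genes 15.2% passed, and 4 tested members are too few to set beside that share. SNX18 (ENSGALG00000014914) encodes a sorting nexin with a membrane-curving BAR domain, which acts in endocytosis and in the supply of membrane to autophagosomes. It had a mean of 1738 normalised counts in the authors' deposited table, and its log2 fold change there was 0.46 ± 0.15 (standard error, here and below; adjusted p = 0.0161). That is a 1.37-fold rise, with a 95% interval of 1.13 to 1.67 computed from the authors' deposited standard error. The log2 fold change exceeded that of 90.0% of all tested genes, and its p-value ranked 1313 of 12574. The call did not hold with the Wald scores divided by their central spread of 1.69 (adjusted p = 0.597, range over all settings 0.000913 to 0.597).

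SNX33 is a close relative of SNX18 in the same BAR-domain subfamily. The authors' deposited table gave it a log2 value of 0.15 ± 0.14 (adjusted p = 0.544), at a mean of 3194 normalised counts. Its 95% interval, -0.13 to 0.43, ended just below the point value of SNX18 and overlapped the interval of SNX18, 0.17 to 0.74. The difference between these relatives was not tested, since the table holds no values per library. EHD4, an ATPase of endocytic recycling that shapes endosomal tubules, had a log2 fold change of 0.31 ± 0.21 (mean 489.5 normalised counts, adjusted p = 0.362) in the authors' deposited table. VPS29, a subunit of the retromer that retrieves cargo from endosomes, had the smallest change of the tested members in the authors' deposited table, -0.021 ± 0.11 as log2, at a mean of 13181 normalised counts (adjusted p = 0.936). Its 95% interval ran from a fold of 0.844 to 1.15. SNX21, a sorting nexin of early endosomes, had a mean of 10.2 and no adjusted p, and the authors' deposited table gave it a moderated log2 fold change of -0.18 ± 0.18.

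**Figure D1:**
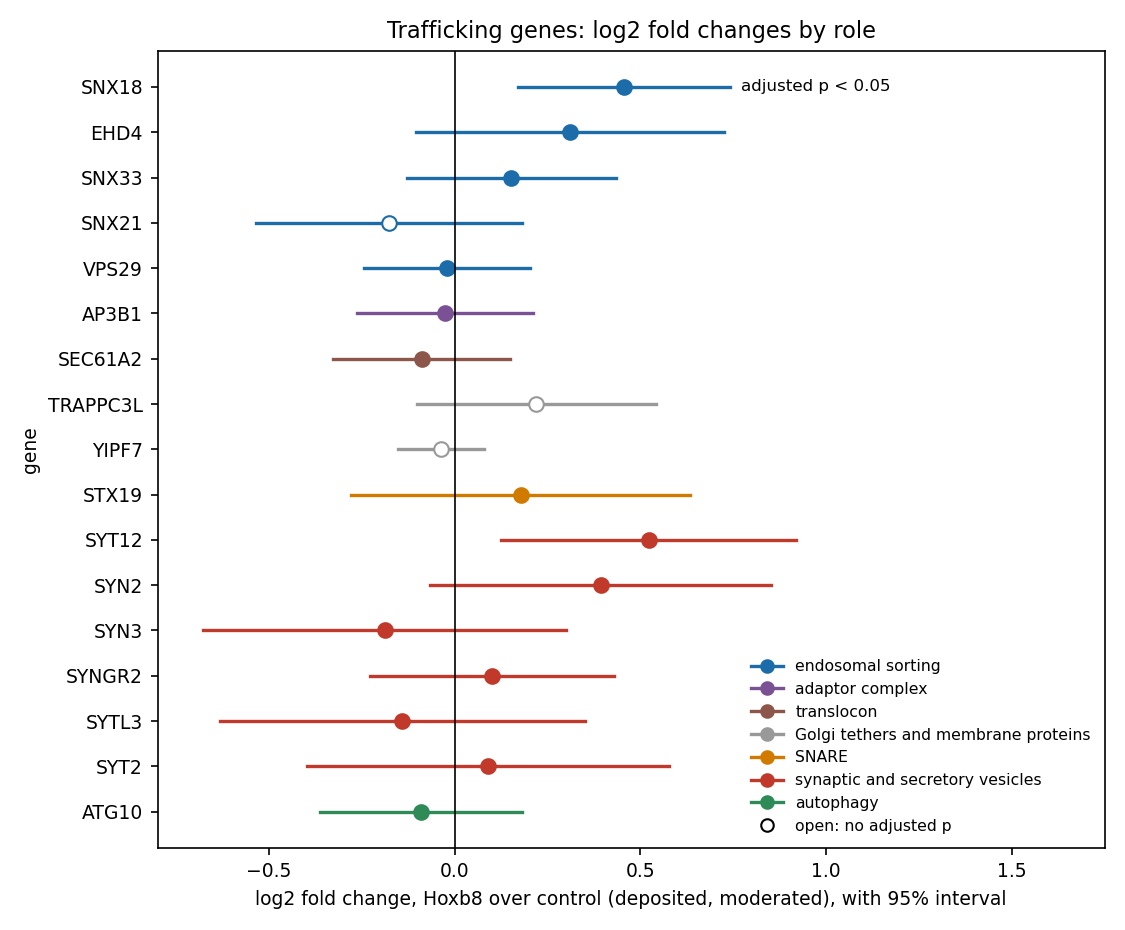
Log2 fold changes (x axis, Hoxb8 over control, moderated by the authors) of the 17 trafficking genes (y axis), coloured by role, with bars for the 95% interval computed from the authors' standard errors and open circles for the 3 genes with no adjusted p. SNX18 and SYT12 are the 2 tested genes whose interval lies wholly above 0, and SNX18 alone passed an adjusted p under 0.05.

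The 6 genes of synaptic and secretory vesicles held the highest and the lowest fold change of the set, and none passed the DESeq2 test of the authors (0 of 6, with 1 under 0.05 before adjustment). Over all tested genes 15.2% passed, and 6 genes are too few to set beside that share. The count also leaves out UNC13B and SCG2, neurosecretory genes that were called but excluded by name. SYT12 encodes a synaptotagmin, a vesicle protein with paired C2 domains, of a type that does not bind calcium. It had a log2 fold change of 0.52 ± 0.20 by the authors' deposited table, at a mean of 558.3 normalised counts (p = 0.00979, adjusted p = 0.0600). The fold of 1.44 was larger than that of SNX18, but its standard error was also larger, and the 95% interval ran from 1.09 to 1.89. SYT12 passed when the fold changes were shifted so that genes with a mean over 10000 had a median of 0 (adjusted p = 0.0120, range over all settings 0.0120 to 0.769). SYT2, the calcium sensor of fast transmitter release, had few counts (mean 35.9), and the authors' deposited table put its log2 fold change at 0.090 ± 0.25 (adjusted p = 0.868).

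The synapsins, phosphoproteins that hold synaptic vesicles in the reserve pool, had opposite signs. SYN2 had a log2 value of 0.39 ± 0.23 (mean 221.9, adjusted p = 0.280) in the authors' deposited table. SYN3 had one of -0.19 ± 0.25 (mean 200.8, adjusted p = 0.691) in the authors' deposited table. Their 95% intervals, -0.066 to 0.85 for SYN2 and -0.68 to 0.30 for SYN3, overlapped, and the difference between them was not tested. SYTL3, a Rab27 effector of secretory granules, stood at -0.14 ± 0.25 in the authors' deposited table (mean 154.1, adjusted p = 0.777). SYNGR2, a synaptogyrin that is also made outside neurons, stood at 0.10 ± 0.17 (mean 3055, adjusted p = 0.761) in the authors' deposited table. The standard error of SYNGR2 was 1.21 times the median of genes of like level, the highest such ratio among the tested members.

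Markers of other cell types had few rows beside these values. RBFOX3, a marker of postmitotic neurons and the 1 gene of 11 in that list with a symbol, rose by a log2 value of 0.47 ± 0.17 (adjusted p = 0.0440) in the authors' deposited table. That call lay near the threshold and did not hold at an adjusted p under 0.01. Its Wald score of 2.73 was below the 3.14 of SNX18. Since SNX18 did not pass with the scores divided by their central spread, RBFOX3 did not either. Of the neural crest list 1 of 7 genes was tested and was lower (PAX3, also a regulator of the dorsal neural tube). PAX3 stood at -0.82 ± 0.12 as log2 (adjusted p = 4.87e-10 by the DESeq2 test of the authors). Of the blood and endothelium list 2 of 10 were tested and 1 was higher (LMO2, also made in spinal interneurons), with PECAM1 not called. Neither the call of PAX3 nor that of LMO2 is specific to the cell type of its list. Of 9 mesoderm genes 1 was tested (UNCX), of 8 surface ectoderm genes 1 was tested (GRHL2) and KRT8 was listed at 0, with 0 calls in both lists. Of the 4 genes of notochord and floor plate 0 carry a symbol. The part of these cells in the values of the synaptic genes was not tested.

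The remaining members act at the Golgi, in the endoplasmic reticulum, at lysosome-related organelles, in autophagy and, as a SNARE, in membrane fusion. None of the 4 with an adjusted p (AP3B1, SEC61A2, ATG10 and STX19) passed the authors' DESeq2 threshold (0 under 0.05 before adjustment). The shares over all tested genes were 15.2% with adjustment and 26.7% without, and 4 genes are too few to set beside them. AP3B1, the large beta subunit of the AP-3 adaptor that routes cargo to lysosome-related organelles, had a log2 fold change of -0.026 ± 0.12 (mean 6479, adjusted p = 0.924) in the authors' deposited table. SEC61A2, a paralogue of the channel subunit through which nascent proteins enter the endoplasmic reticulum, stood at -0.088 ± 0.12 in the authors' deposited table (mean 6462, adjusted p = 0.704). ATG10, the enzyme that joins ATG12 to ATG5 during autophagosome formation, stood at -0.092 ± 0.14 in the authors' deposited table (mean 2142, adjusted p = 0.733). The signs of AP3B1, SEC61A2, ATG10 and VPS29 were not stable: each turned positive when genes with a mean over 10000 were set to a median of 0.

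STX19, a syntaxin without a transmembrane segment and the 1 SNARE in the set, was thinly covered. Its mean was 25.4 normalised counts in the authors' deposited table, with a log2 fold change of 0.18 ± 0.23 (adjusted p = 0.689). TRAPPC3L, a paralogue of a subunit of the TRAPP tethering complex, and YIPF7, a Golgi membrane protein of the Yip1 family, lay under the mean below which the authors' deposited table gives no adjusted p. TRAPPC3L had 33.7 normalised counts summed over the 4 libraries, and the authors' deposited table gave it a moderated log2 value of 0.22 ± 0.16 (p = 0.182). YIPF7 had 4.19 normalised counts summed over the 4 libraries, too few to show a change in either direction. Its moderated log2 value was -0.036 ± 0.059 (p = 0.540 by the DESeq2 test of the authors). Likewise CHMP2A at 0 does not show a silent gene, since RPL17, RPL34 and RPS26, which encode parts of the ribosome, were listed at 0 as well.

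Fold changes in this table moved with the mean of the gene, so each member was also set beside genes of like level. The median log2 fold change of tested genes was 0.15 at means of 100 to 1000 and -0.12 above 10000. Against the 500 tested genes nearest in mean, SNX18 exceeded 89.0% of the log2 fold changes, SYT12 80.8%, SNX33 76.2% and VPS29 70.8%. SYN3 exceeded 19.2% and SYTL3 21.8%, and the other 8 tested members between 34.2% and 69.6%. With the running median of like-level genes subtracted, SNX18 moved little (0.44, adjusted p = 0.0240 over all tested genes), while SYT12 stood at 0.38 (adjusted p = 0.232), SYN2 at 0.19, SNX33 at 0.16, EHD4 at 0.15, SYTL3 at -0.29 and SYN3 at -0.34. VPS29 and AP3B1 changed sign, to 0.095 and 0.035. After this centring 10 of the 14 tested members lay above 0, with a median of 0.099.

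**Figure D2:**
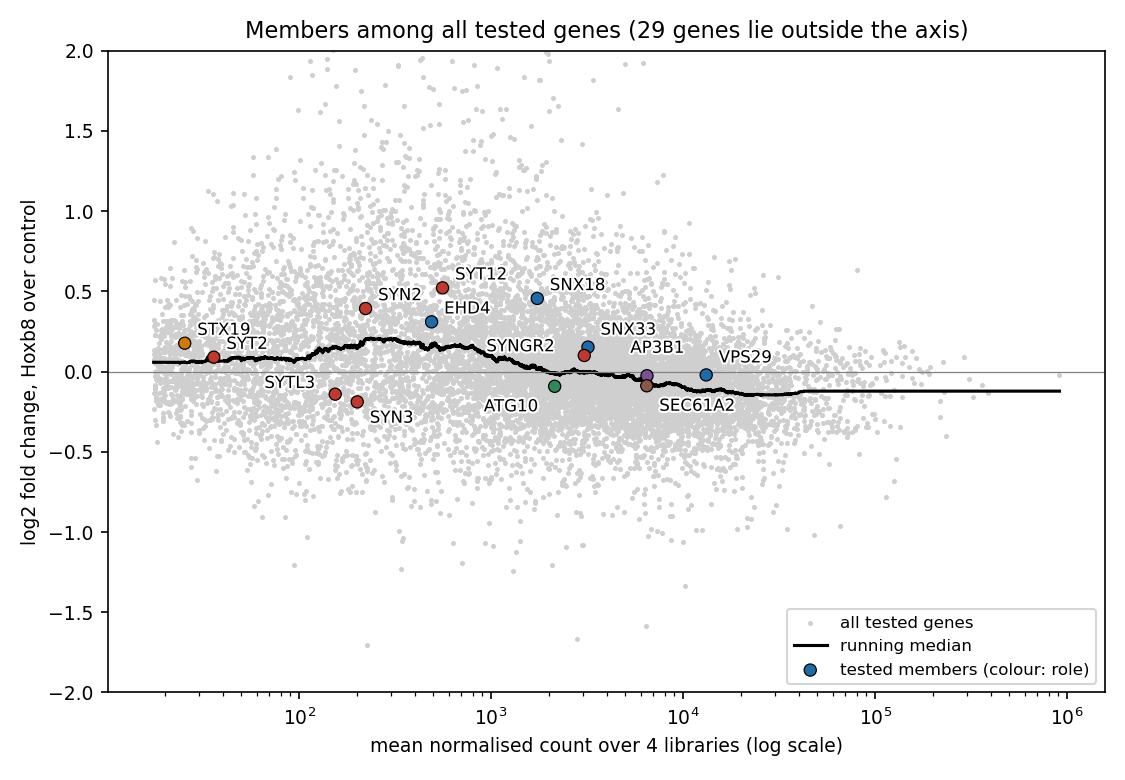
Log2 fold change (y axis, Hoxb8 over control) against the mean normalised count over the 4 libraries (x axis, log scale) for all 12574 tested genes in grey and the 14 tested trafficking genes in colour by role, with the running median over 500 genes as a black line. Of the 14 members 10 lie above the line, SNX18 and SYT12 farthest, and SEC61A2, ATG10, SYTL3 and SYN3 lie below it, all within the cloud of the other genes; 29 genes beyond a log2 fold change of 2 are not drawn.

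**Figure D3:**
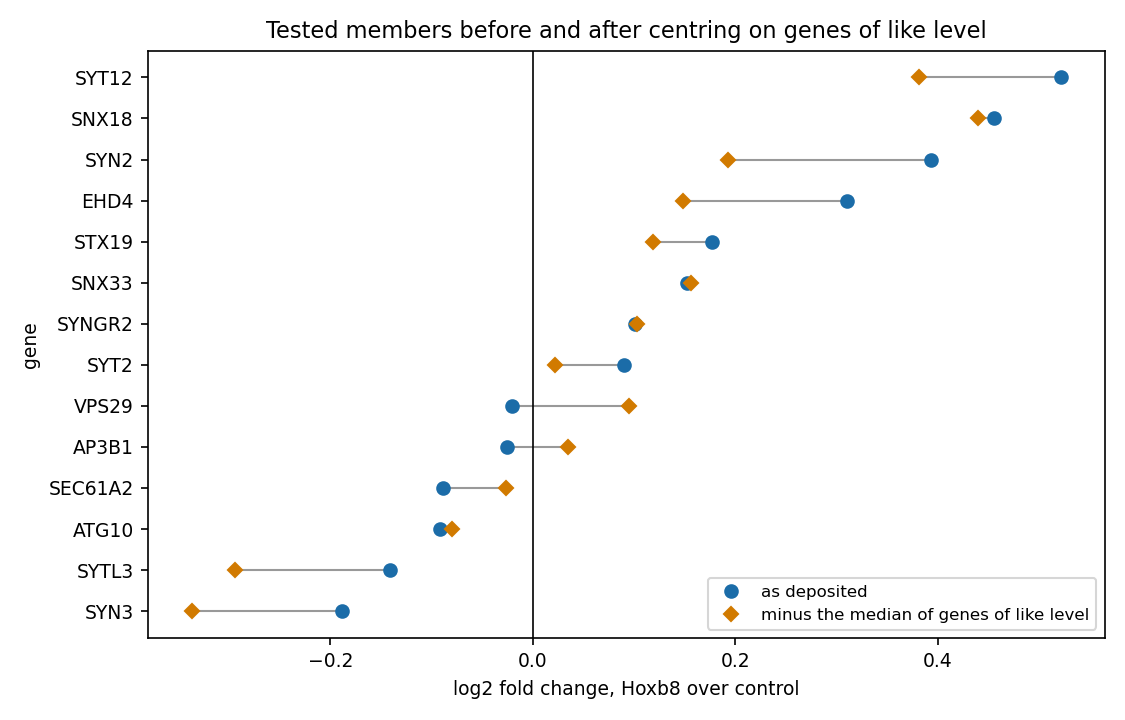
Log2 fold changes (x axis, Hoxb8 over control) of the 14 tested trafficking genes (y axis), as deposited (circles) and after subtracting the median of genes of like level (diamonds). SNX18 keeps 0.44 of its 0.46, SYN2 goes to 0.19, and VPS29 and AP3B1 cross 0.

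Read by level, each range of means held only 1 to 6 members, too few to judge how near the calls lay to the background. At means of 1000 to 10000, 1 of 6 members passed (16.7%), against 15.1% of tested genes there. At means of 100 to 1000, 0 of 5 members passed the DESeq2 test of the authors (1 under 0.05 before adjustment), against 19% of tested genes. The 2 members under 100 and the 1 above 10000 did not pass either, where 5.53% and 17.9% of tested genes did.

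Precision differed between members by their counts. The authors' deposited standard errors of the 14 tested members ran from 0.11 (VPS29) to 0.25 (SYTL3), and apart from SYNGR2 lay between 0.94 and 1.04 times the median of genes of like level. For 8 of the 14 the upper end of the 95% interval lay below the log2 fold change of SNX18, so a rise of that size lay outside the interval of these genes: SNX33, VPS29, AP3B1, SEC61A2, SYN3, SYNGR2, SYTL3 and ATG10. With the standard errors multiplied by the central spread of 1.69 the number was 4 (VPS29, AP3B1, SEC61A2 and ATG10). The value of SNX18 is itself an estimate, with a 95% interval of 0.17 to 0.74. The upper ends of SNX33 and SYNGR2, both 0.43, lay just below its point value of 0.46. For EHD4, STX19, SYT12, SYN2 and SYT2 a rise of that size lay within the deposited interval, and no call is not evidence of no change. The authors' fold changes and standard errors are moderated toward 0, so the intervals can be too narrow to be read as limits on the true change, also for the 5 members with errors of at least 0.23 (SYTL3, SYN3, SYT2, SYN2 and STX19).

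**Figure D4:**
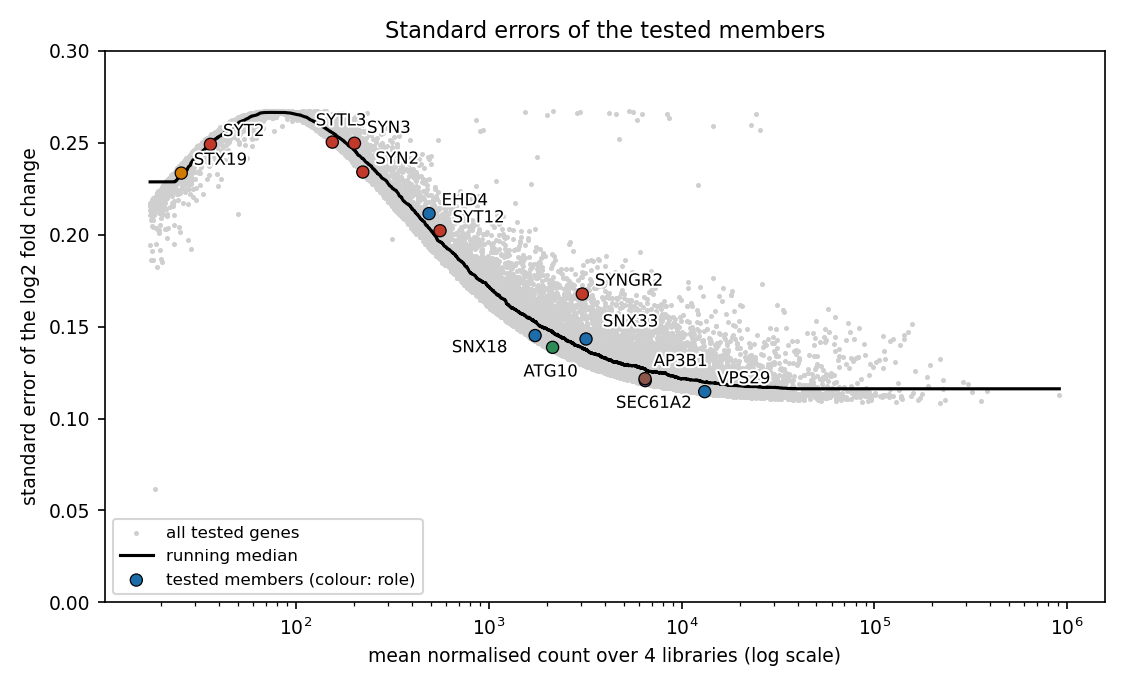
Standard error of the log2 fold change (y axis) against the mean normalised count over the 4 libraries (x axis, log scale) for all tested genes in grey and the 14 tested trafficking genes in colour by role, with the running median as a black line. Errors fall to 0.11 at VPS29, while SYNGR2 lies above the line at 0.17. The errors of STX19 and SYT2 lie at the left end, where the running median falls again toward low counts.

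Genes of related pathways with other names were looked up from a list of 163, of which 5 carry a symbol in the table. The list held, among others, coat, clathrin, endosome, autophagy and secretory granule genes, and genes that shape the endoplasmic reticulum. Of these 5 tested genes 3 rose and none fell by the DESeq2 test of the authors (0 lower, with 1 lower under 0.05 before adjustment). Of all tested genes 8.72% rose. The list was chosen with earlier results of these data known, so its count is not an independent comparison with that share. SAR1B, the GTPase that starts COPII coat assembly on the endoplasmic reticulum, rose by a log2 value of 0.42 ± 0.13 (mean 5221, adjusted p = 0.0108) in the authors' deposited table. CPE, the carboxypeptidase that trims peptide precursors in secretory granules, rose by 0.68 ± 0.15 (mean 2554, adjusted p = 0.000165) in the authors' deposited table. PCSK1, the convertase that cleaves those precursors, rose by 1.13 ± 0.21 in the authors' deposited table (mean 351.7, adjusted p = 3.72e-06). REEP1, which shapes tubules of the endoplasmic reticulum, stood at -0.33 ± 0.15 (mean 1498, p = 0.0327 and adjusted p = 0.141 by the DESeq2 test of the authors). ATL2, an atlastin that fuses such tubules, stood at -0.18 ± 0.12 (adjusted p = 0.339) in the authors' deposited table. None of the 3 rises passed with the scores divided by their central spread (adjusted p = 0.541, 0.181 and 0.0599 for SAR1B, CPE and PCSK1).

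The excluded genes are both neurosecretory and both rose. UNC13B, which primes synaptic vesicles for fusion, had a log2 fold change of 0.98 ± 0.20, at an adjusted p of 2.99e-05 in the authors' deposited table. SCG2, a granin of dense-core vesicles, had one of 0.74 ± 0.21 in the authors' deposited table, at an adjusted p of 0.00508. Neither passed with the scores divided by their central spread (adjusted p = 0.111 for UNC13B and 0.451 for SCG2), and SCG2 also missed the threshold (adjusted p = 0.0531) once the like-level median was subtracted. With them, a setting chosen after seeing the data, 3 of 16 tested genes passed, a share of 18.8% against the 15.2% of all tested genes. Both were called as deposited, so adding them could only raise the share.

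The names in the table set how much of the machinery can be seen. The reference gene table of the later assembly GRCg7b holds 296 protein-coding symbols that match the name pattern, against 20 in the authors' deposited table, which pairs 8.37% of its genes with a symbol. Of 27 sorting nexins 3 are named there, of 15 synaptotagmins 2, of 33 VPS genes 1 and of 19 AP subunits 1. None of 12 exocyst genes, 7 COG genes, 7 COPI genes or 5 VAMP genes carries a symbol (0 each), so these complexes were not analysed here. In GRCg7b the spans of 9 of the 17 members overlap another gene. Among them SNX18, the 1 member called, and EHD4 each overlap a gene model without a name, and named partners lie at VPS29 (KNTC1 and RAD9B), TRAPPC3L (FAM26D and FAM26E), SYN2 (TIMP4), SYN3 (TIMP3) and SYNGR2 (TMC6). Whether the counting used strand is not given in the sources used here, so reads of such partners cannot be told apart, and paralogues such as SEC61A1 and SEC61A2 may share reads. Counts are not divided by transcript length, and the means above do not rank the genes by level.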

How the data were processed

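The values come from 1 deposited table, which sets Hox over WT; since the labels name no further group, WT is read as the pCIG control. Its signal is a mean over 4 libraries of size-factor-normalised counts, per the file headers. The authors' log2 fold changes and standard errors are on the log2 scale and moderated toward 0: the standard error has a median of 0.11 among genes below the filter and is at most 0.27. Checked on the file, the authors' score is the log2 fold change over its standard error (deviations up to 9.24e-14), the deposited p-values are its two-sided normal values, and the adjusted ones follow Benjamini-Hochberg over 12574 genes. Genes with a mean up to 17.47 have no adjusted p. Per the submitters' processing notes, galGal4, Subread, featureCounts, DESeq and DESeq2 were used, without roles or versions. Genes are those of Ensembl release 85, per the file's name.

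From these values, calls at an adjusted p under 0.05 were counted, 95% intervals were computed as normal intervals, and fold changes were centred and adjusted again over the whole table (Python 3.11.15, numpy 2.4.6, pandas 2.3.3, scipy 1.17.1). The code was tested on simulated data. The intervals cover the spread the authors' model gives to 2 libraries per group. The members, roles and lists were chosen with earlier results of these data known. Full statistics are given for called members, for the 2 lowest p and the highest mean of each role, and for listed genes of other names at an unadjusted p under 0.05; other members are given more briefly or likewise. The planned edgeR model was not run, for want of counts per library.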

Additional observations from a re-analysis of the deposited data

How the results depend on the processing

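The 1 member called, SNX18, was also called with no filter on the mean, with a mean of at least 50, and with both centrings on other genes. Of the centrings, that on like level moved it more, since the median of all tested genes was only -0.0053. Leaving out SEC61A2, the member that acts in translocation, kept the count of members called at 1. That setting could not change the call of SNX18. The count became 0 at an adjusted p under 0.01 (2 at an unadjusted p under 0.05) and 0 with the Wald scores divided by their central spread (0 at an unadjusted p under 0.05), and 2 at an adjusted p under 0.1 and with the median of genes over 10000 placed at 0, where SYT12 joined. It became 3 with UNC13B and SCG2, a setting chosen after seeing the data. Over all genes there were 1184 calls at an adjusted p under 0.01, against 1913 at 0.05, and 314 with the divided scores. With genes over 10000 at 0, a shift of 0.12, 83.7% of calls were higher in Hoxb8, against 57.3% as deposited. The 3 called genes of other names became 0 with the divided scores (2 at an unadjusted p under 0.05). Signs turned positive in VPS29 (0.095) and AP3B1 (0.035) when centred on genes of like level, and in VPS29 (0.10), AP3B1 (0.099), SEC61A2 (0.036) and ATG10 (0.033) with genes over 10000 at 0. These log2 values were smaller, as deposited, than the shift. No paired analysis was possible because values of single libraries are not in the table used, and for that reason leaving out single libraries and TMM normalization were not run. The 3 members without an adjusted p, at means of 1.05 to 10.2 normalised counts, were not called without the filter.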
